A study of Mus musculus with 135 samples.

Results

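Potassium channel genes are the subject here: the genes for the pore-forming and accessory subunits of the channels that let potassium ions cross the cell membrane. Members were taken by symbol: a gene symbol had to begin with Kcn, followed by a family letter (a to h, j, k, m, n, q, s, t or v) and a number, Kcne2 and Kcnj8 were set aside, and the mean level had to reach 1 CPM in the cortex or the hippocampus. CPM is the count of a gene scaled to a fixed total of reads on genes in its library (the usual counts-per-depth unit of RNA-seq). Of 84 symbols that fitted the name, 67 reached this level, among 55416 genes in each count table. At 1 CPM, 66 members were present in the cortex and 67 in the hippocampus, against 15002 and 15026 of all genes. Just inside the limit lay Kcne4 with a mean of 1.09 CPM and Kcnmb1 with 1.49 CPM in the tissue where each was higher, and just outside lay Kcnh8 with 0.674 CPM. All 67 passed the filter on low counts in every fit.

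A neuron at rest is held near the potassium equilibrium potential by channels that are open at rest, and potassium channels opened by depolarisation or by calcium end each action potential and set how often a cell can fire. The families differ in what opens them. Voltage-gated channels (Kcna to Kcnd, with the Kcnq and Kcnh families) open on depolarisation, inward rectifiers (Kcnj) pass current mostly near rest, K2P channels (Kcnk) are leak channels, and the Slo (Kcnma1, Kcnt) and SK (Kcnn) channels respond to calcium, sodium or both voltage and calcium. Kcnf, Kcng, Kcns and Kcnv encode modifier subunits that carry no current alone and join other voltage-gated subunits. In the cortex and hippocampus Kcnj10 buffers potassium in astrocytes, and Kcnh5 (Eag2) belongs to the ether-a-go-go family.

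Bulk RNA-seq was run on 2 brain regions, cerebral cortex and hippocampus, of male Townes mice, whose own globin genes are replaced by human ones. AA mice carry the normal adult human allele and SS mice the sickle allele, so the AA controls are humanised too. RSD is repeated social defeat, in which an aggressive male intruder was put into cages of 3 mice for 2 h a day on 6 days, and minocycline (90 mg/kg, in drinking water, from 1 day before RSD) is a tetracycline that dampens microglia. The mice of the first cohort were 6 months old, and the age of the other mice is not given in the sources used here. The groups were, in the cortex, 12 AA, 3 AA + RSD, 18 AA + RSD + minocycline, 1 AA + minocycline, 8 SS, 6 SS + RSD, 14 SS + RSD + minocycline and 4 SS + minocycline mice; the hippocampus had 11 AA and 7 SS mice and otherwise the same numbers. Each library came from 1 mouse and both tissues mostly from the same mice. Within each genotype RSD mice were compared with controls and RSD + minocycline mice with RSD mice, and the genotypes were compared within the same treatment.

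Libraries held 16295042 to 107713193 reads on genes in the cortex and 12869149 to 68731008 in the hippocampus. Mouse labels fall into 3 number series. Series A covers mice 5349 to 5400 and 9615 to 9674, series B covers 5645 to 5900 and 9810 to 9910, and series C covers 7037 to 7121 and 10633 to 10639. All RSD mice without minocycline are in series A and all RSD + minocycline mice in series B or C, while controls are in A and B. Mouse 9674 (AA + RSD) stood apart. Its library labelled cortex had a summed level of 323 CPM over 5 hippocampus marker genes (32.3 to 147 CPM in the other 65 cortex libraries), 228 CPM over 6 cortex markers (287 to 726 CPM) and 4949 CPM of the choroid plexus gene Ttr. Its library labelled hippocampus had 62.1 CPM of the hippocampus markers (239 to 680 CPM in the other 63) and 546 CPM of the cortex markers (187 to 428 CPM). Both libraries therefore went against their tissue labels, and the fold changes of members called with AA + RSD mice are given with and without this mouse. In 4 other mice blood genes went against the genotype label. AA mice 5844 and 5853 had 95.9 and 51.9 CPM of Alas2, a heme enzyme of red cell precursors that is high in SS mice, in the cortex, SS mouse 7078 had 6.47 CPM, and AA mouse 9631 had 1944 counts of the mouse beta-globin gene Hbb-bs in the cortex, where the other libraries had 0 to 8. In bulk tissue, fewer cells of a type and less RNA per cell cannot be told apart.

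Most of the coding members share a short sequence, the signature of the selectivity filter. Members were taken by the names of channel subunits, so a high share follows from the selection and is no separate support for it. The selectivity filter of a potassium channel is a turn of the pore in which backbone oxygens hold dehydrated potassium ions. It was searched for in the coding sequence as a serine or threonine, then valine, isoleucine, leucine or threonine, glycine, then tyrosine, phenylalanine or leucine, and glycine. In the annotated coding sequences 52 of 66 coding members held the signature 1 time, 9 held it 2 times and 5 lacked it, against 349 of 21521 protein-coding genes (1.622%). The 9 with 2 copies were the K2P genes, whose single protein chain supplies a pair of pore loops. The 5 without it were the accessory Kcne1l, Kcne4, Kcnmb1, Kcnmb2 and Kcnmb4. Kcnq1ot1, which entered by its name, is a long noncoding RNA and no channel subunit. Its annotated gene spans chr7:142731402-142850327 on the minus strand, opposite Kcnq1.

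The windows below are the coding strand, with the codons of the signature in capitals. They were read from the GENCODE transcript with the longest coding sequence and placed on GRCm39 by the annotation. They show how the filter changes between the families whose levels are described. The Kcnh genes come first since all of them differed between the tissues. In Kcnh5 the window lies at chr12:75134234-75134260 (minus strand, exon 7 of 11) and in Kcnh4 at chr11:100641113-100641139 (minus strand, exon 8 of 17).
Kcnh5: cttacaACCATAGGATTTGGAaacata
Kcnh4: ctcaccAGTGTAGGCTTCGGCaacgtg
Kcnh7: ctaaccAGTGTAGGATTTGGAaatgtg
Kcnh1: ctcaccAGTGTGGGCTTTGGTaacatt
Kcnh3: ctcaccAGTGTGGGCTTCGGCaacgtg
Kcnh6: ctcactAGTGTGGGCTTCGGCaatgtg
Kcnh2: ctcaccAGCGTGGGCTTTGGCaatgtc
All 7 Kcnh windows carry a phenylalanine codon (TTT or TTC) at the position where most other voltage-gated channels carry a tyrosine codon. Kcnh5 opens its signature with a threonine codon (ACC) and the other 6 open it with a serine codon (AGT or AGC). For some other families windows are shown from members the results return to.
Kcnf1: atgaccACAGTGGGCTATGGTgacatc
Kcnj10: cagaccACCATCGGCTATGGCttccgc
Kcnk9: ttgactACTATAGGGTTCGGCgatttt
Kcnk1: ctgagcACCATCGGCCTGGGGgactat
Kcnt1: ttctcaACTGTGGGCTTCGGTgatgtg
Kcnn1: ttcttgTCCATTGGCTATGGAgacatg
These windows lie at chr12:17225056-17225082 (minus), chr1:172196863-172196889 (plus), chr15:72384562-72384588 (minus), chr8:126752062-126752088 (plus), chr2:25784373-25784399 (plus) and chr8:71303295-71303321 (minus), in that order. Those of Kcnk9 and Kcnk1 are the second of their 2 signatures. The modifier Kcnf1 has an intact filter although it forms no channel alone, and Kcnk1 carries a leucine codon (CTG) in place of the aromatic one.

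Levels spanned a wide range when set against gene length. In the cortex the highest mean levels per kilobase of exon included those of Kcnj10 (34.8 CPM per kb), Kcnk1, a weakly conducting K2P channel (34.7), Kcnj4, an inward rectifier of forebrain neurons (33.4), Kcnf1 (31.2), Kcna2, an axonal channel (25.4), Kcnj3, a subunit of G protein-gated channels (23.9) and Kcnh3 (23.4). In the hippocampus they included those of Kcnj10 (30.8 CPM per kb), Kcnk1 (30.4), Kcnj3 (25.6), Kcnj4 (20.8), Kcnd2, the A-type channel of dendrites (19.4), Kcnc1, of a family known from fast-firing neurons (17.6), and Kcna2 (14.9). Of each remaining family the member highest per kb in the cortex was Kcnma1, the BK channel pore (17.9 CPM per kb), Kcnn2 of the SK channels (3.999) and Kcne1l (1.65). At the low end stood Kcnmb1 (0.168), Kcnq1ot1 (0.206) and Kcnj13 (0.212) in the cortex, and Kcnq1ot1 (0.195), Kcng3 (0.289) and Kcnmb1 (0.336) in the hippocampus.

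**Figure D1:**
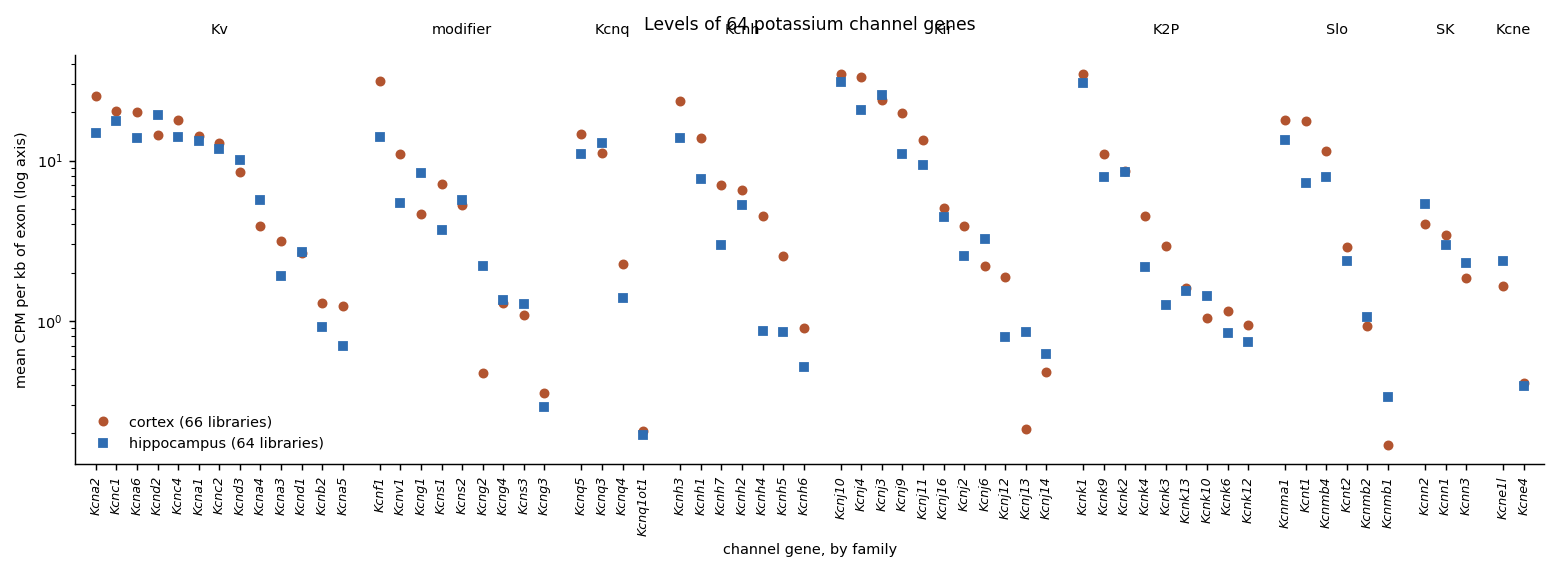
Mean level of 64 of the 67 channel genes in CPM per kilobase of exon (log axis), grouped by family, in 66 cortex libraries (circles) and 64 hippocampus libraries (squares). Every Kcnh gene is lower in the hippocampus, and Kcnj10 at 34.8 CPM per kb in the cortex is the highest value plotted.

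The tissue was the condition with which most members differed. The tissue fits used here did not pair the libraries of a mouse. In AA controls 14 channel genes were higher and 36 lower in the hippocampus than in the cortex (74.6% of 67 called at an adjusted p under 0.05 by edgeR's quasi-likelihood test), where 36.6% of 19255 genes were called, 18.5% higher and 18.1% lower. In SS controls, which are other animals, 11 were higher and 33 lower (65.7%), beside 30.6% of all genes, 15.1% higher and 15.5% lower. The median log2 fold change over the members was -0.26 in AA and -0.34 in SS controls, against 0.01 and 0.02 over all genes tested. In mice given RSD and minocycline 14 were higher and 36 lower in AA mice (39.5% of all genes called) and 14 higher and 29 lower in SS mice (29% of all genes). In all 4 sets of mice 37 members were called the same way, 9 of them higher and 28 lower in the hippocampus. None was called in opposite ways and 10 were called in no set. The same counts over all genes are not given here, so this sameness is not read as particular to channel genes. Within 1 number series, 38 (A) and 49 (B) members were called in AA controls and 29 and 40 in SS controls. The shares of all genes called in these smaller fits are not given here, so the counts have no background beside them. The 5 hippocampus markers summed to 335 to 680 CPM in AA control hippocampus and 54.2 to 104 CPM in AA control cortex, without overlap.

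**Figure D2:**
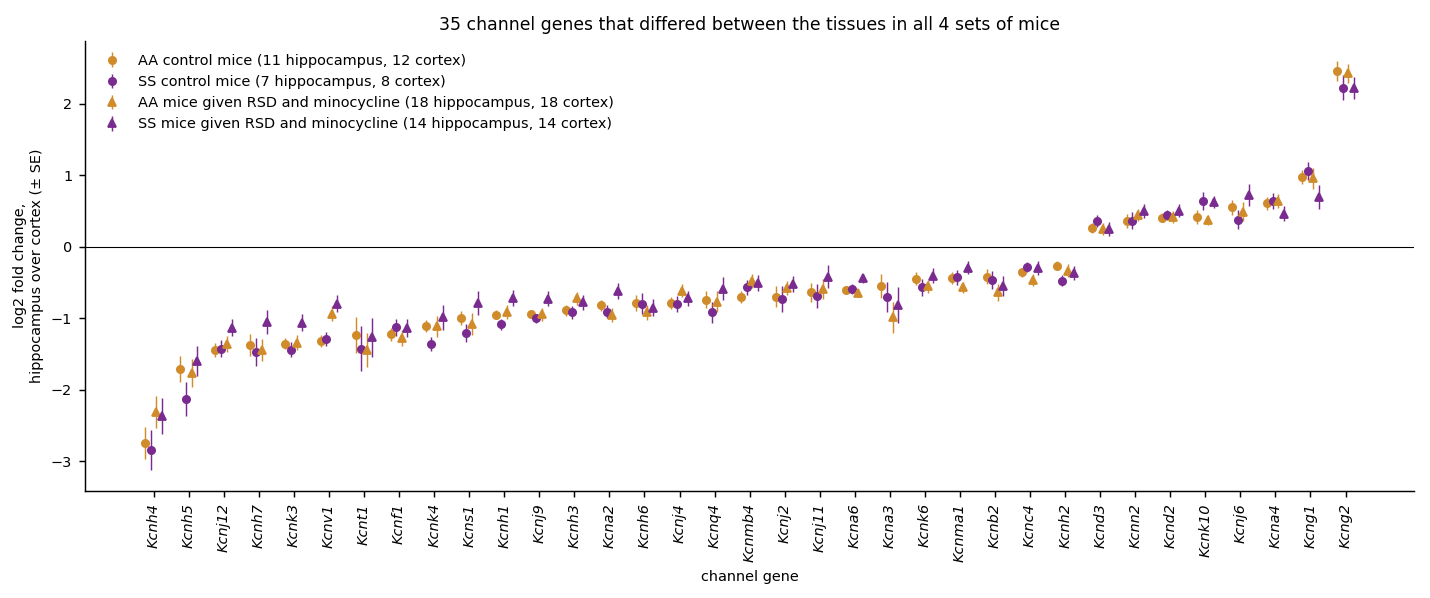
Log2 fold change of hippocampus over cortex with its standard error for 35 of the 37 channel genes called in all 4 sets of mice (circles, controls; triangles, RSD + minocycline; orange, AA; purple, SS). Kcnh4 at -2.74 and Kcng2 at 2.45 in AA controls mark the ends, and the 27 genes plotted below 0 outnumber the 8 above it.

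All 7 ether-a-go-go genes were lower in the hippocampus, in both control sets and in both treated sets. Of all genes 18.1% were lower in AA and 15.5% in SS controls. In AA control cortex Kcnh4 (Elk1) ranged from 11.04 to 36.5 CPM with a median of 22.5, and in AA control hippocampus from 1.72 to 6.42 CPM with a median of 3.87. No hippocampus value reached the lowest cortex value, and the log2 fold change was -2.74 ± 0.22 (SE, adjusted p = 4.67e-13) in AA and -2.84 ± 0.28 (adjusted p = 6.81e-11) in SS controls. Kcnh5 ranged from 10.7 to 20.99 CPM in the cortex and from 2.41 to 6.99 CPM in the hippocampus of AA controls, again without overlap, with -1.71 ± 0.18 (adjusted p = 5.09e-10) in AA and -2.13 ± 0.23 (adjusted p = 1.08e-09) in SS controls. For Kcnh7 (Erg3) the ranges were 70.9 to 153 CPM and 19.5 to 61.1 CPM, and the log2 fold change was -1.38 in AA and -1.47 in SS controls. Its exons are overlapped over 20.6% of their length by exons on the other strand, with Gca the gene of largest overlap. The remaining members were lower by less: in AA controls Kcnh1 (Eag1) had -0.95, Kcnh3 (Elk2) -0.89, Kcnh6 (Erg2) -0.79 and Kcnh2 (Erg1, the cardiac repolarising channel) -0.26 on the log2 scale.

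The modifier subunits went both ways, and the largest rise among members called in all 4 sets was theirs. Kcng2 (Kv6.2) ranged from 2.96 to 6.06 CPM in the cortex and from 18.6 to 33.3 CPM in the hippocampus of AA controls, without overlap. Its log2 fold change was 2.45 ± 0.14 (adjusted p = 2.17e-17) in AA and 2.22 ± 0.17 (adjusted p = 2.13e-13) in SS controls, and it was above 2 also in the treated mice (2.42 and 2.22). Kcng1 rose with it, from 17.4 to 25.5 CPM in the cortex to 28.1 to 51.2 CPM in the hippocampus (log2 fold change 0.97 in AA and 1.06 in SS controls). Exons on the opposite strand overlap 26.1% of the exon length of Kcng2 and 20.6% of that of Kcng1, and the strand setting of the counts is not given in the sources used here. The same limit holds for other members named here, with an overlap of 39.7% for Kcna6, 27.5% for Kcna3, 22.6% for Kcnj3 and 21.4% for Kcnj9. On the other side, Kcnv1 (Kv8.1) fell from a median of 95.6 to 38.2 CPM (-1.32 in AA, -1.29 in SS controls), Kcnf1 from 154 to 69.5 CPM (-1.23 and -1.13) and Kcns1 by 0.99 and 1.21. Of the 9 modifiers 2 were called higher and 3 lower in each control set, where 36.6% (AA) and 30.6% (SS) of all genes were called.

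Among the inward rectifiers 7 of 11 were lower in AA and 5 of 11 in SS control hippocampus, beside 18.1% and 15.5% of all genes. Kcnj12 (Kir2.2) ranged from 10.7 to 13.7 CPM in the cortex and from 3.37 to 6.67 CPM in the hippocampus of AA controls, without overlap, with a log2 fold change of -1.44 in AA and -1.42 in SS controls. Kcnj4 and Kcnj2, of the same strong rectifiers, had -0.79 and -0.70 in AA controls, and Kcnj9, a G protein-gated subunit, -0.94. Kcnj6, another G protein-gated subunit, was higher in the hippocampus (0.55 in AA, 0.38 in SS controls). Kcnj13 (Kir7.1), which is known from the choroid plexus and other epithelia, was called higher in AA (3.02, adjusted p = 0.00172) but not in SS controls (0.92, adjusted p = 0.504), and the difference between the genotypes was not tested. Its values ran from 0.0953 to 25.5 CPM over 11 AA control hippocampus libraries. Over the same libraries 6 choroid plexus markers summed to between 30.6 and 4380 CPM, against 8.43 to 36.6 CPM in AA control cortex. Their part in the Kcnj13 result was not tested.

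The K2P leak channels were split: Kcnk3 (TASK-1) fell from a median of 28.1 CPM in the cortex to 11.7 CPM in the hippocampus of AA controls, without overlap (-1.35 in AA, -1.44 in SS controls), and Kcnk10 (TREK-2), the member that rose, had 0.42 and 0.64. Of 9 K2P genes, 1 was higher and 4 lower in AA, and 1 higher and 5 lower in SS controls. For these and for the Kv genes the background is the 36.6% (AA) and 30.6% (SS) of all genes called. Of the 15 Kv genes 4 were higher and 9 lower in AA controls, and 4 and 8 in SS controls. The 4 higher ones were the same in both, among them Kcna4 (Kv1.4; 0.61 and 0.64) and the A-type channels Kcnd2 (0.41 and 0.45) and Kcnd3 (0.27 and 0.36). For Kcna4 the AA control values lay between 15.5 and 21.4 CPM in the cortex and between 21.997 and 37.2 CPM in the hippocampus. Among the lower ones was Kcna2 (-0.82 and -0.91).

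Kcnt1 (Slack), a sodium-activated channel, had a log2 fold change of -1.24 in AA and -1.43 in SS controls; its values overlapped between the tissues, from 96.4 to 270 CPM in the cortex and 34.4 to 121 CPM in the hippocampus of AA controls. The BK pore gene Kcnma1 had -0.44 and -0.43 and its neuronal accessory subunit Kcnmb4 -0.70 and -0.57. Kcnmb1, the BK subunit of smooth muscle, was called higher in AA (0.86) and had 0.87 with an adjusted p of 0.0573 in SS controls, at levels near 1 CPM. Kcnq5, of the Kcnq family, was lower in both control sets (-0.50 and -0.59). Kcnn2 and Kcnn3, SK channels of the afterhyperpolarisation, were higher in both control sets (0.36 and 0.37, 0.61 and 0.47). Kcne1l, an accessory subunit, had 0.80 and 0.72. In mice given RSD and minocycline Kcnn2 was called in both genotypes and Kcnn3 in neither. Kcnq5 and Kcne1l were called there in AA but not in SS mice.

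Of 21 partner genes of these channels (calcium-binding Kcnip, Kcnab and Dpp auxiliary subunits, Hcn channels and others), 5 were higher and 11 lower in AA and 5 higher and 12 lower in SS control hippocampus. Over all genes 18.5% were higher and 18.1% lower in AA, and 15.1% and 15.5% in SS controls. The auxiliary subunits of Kcnd channels divided: Dpp10 had a log2 fold change of -1.71 and -1.77 and Kcnip3 -0.82 and -0.67, while Dpp6 had 0.84 and 0.87 and Kcnip2 0.90 and 0.72 in AA and SS controls. The Kv1 subunits divided too, with Kcnab3 at -1.45 and -1.62 and Kcnab2 at 0.62 and 0.53. Lrrc38 and Lrrc55, auxiliary subunits of the BK channel, were lower in both (-1.73 and -2.39, -1.20 and -1.30).

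No channel gene was called between the genotypes among control mice. In SS against AA controls 0 of 67 members were called in the cortex (0.214% of all genes were) and 0 in the hippocampus (0.159%) by edgeR's quasi-likelihood test, and DESeq2 called 0 in each. An unadjusted p under 0.05 was reached by 4 members in each tissue (5.97% of members, against 6.55% and 3.71% of all genes). The lowest of these p in the cortex was that of Kcnj2 (mean ± SD of 18.5 ± 3.26 CPM over 8 SS mice, against 23.1 ± 5.43 CPM over 12 AA mice, log2 fold change -0.35 ± 0.13, adjusted p = 0.638). In the hippocampus it was that of Kcng3 (0.554 ± 0.533 CPM over 7 SS mice, against 1.43 ± 0.914 CPM over 11 AA mice, adjusted p = 1). The ranges of both genes overlapped between the genotypes. After RSD and minocycline 0 members were called between SS and AA mice in the cortex (0.624% of all genes; 7 members at an unadjusted p under 0.05; 1 called by DESeq2) and 0 in the hippocampus (2.74%; 5 members; 0 by DESeq2). In that hippocampus comparison 2 of 22 partner genes were called higher in SS mice, Abcc9 (0.56) and Lrrc26 (2.99).

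RSD in AA mice rests on 3 mice, and 1 of them was mouse 9674. With all 3, AA + RSD against AA mice gave 2 higher and 0 lower members in the cortex (0.853% of all genes called) and 4 higher and 0 lower in the hippocampus (1.19%). In the cortex Kcnj13 was 0.480, 0.546 and 33.8 CPM in the 3 AA + RSD mice and 0.143 to 1.87 CPM in 12 AA mice, and Kcng2 was 3.13, 4.78 and 25.9 CPM against 2.96 to 6.06 CPM. The high value was in mouse 9674 both times, and the other 2 mice lay inside the AA range. Mouse 9674 also had 5200 CPM of the choroid plexus markers in that library, against 4.30 to 1197 CPM in the other cortex libraries. In the hippocampus the called members were Kcnk3, Kcnv1, Kcnj4 and Kcna6. Kcnk3 was 12.4, 14.1 and 33.1 CPM in the AA + RSD mice and 7.43 to 15.02 CPM in the AA mice, again with only mouse 9674 outside the AA range. Kcna6 (95.2, 98.1 and 132 CPM against 74.7 to 91.4 CPM) and Kcnj4 (84.9, 94.6 and 138 CPM against 59.8 to 81.9 CPM) lay above all AA values in each of the 3 mice. Without mouse 9674 the fold changes of these 2 were 0.20 (from 0.40) and 0.30 (from 0.58) on the log2 scale, and neither was called.

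AA + RSD + minocycline against AA + RSD mice gave 0 higher and 4 lower members in the cortex (3.6% of all genes) and 1 higher and 6 lower in the hippocampus (2.67%). The cortex members were Kcnj13 (-4.52), Kcng2 (-1.35), Kcna4 (-0.57) and Kcns2 (-0.50). In the hippocampus they were Kcnh5 (-1.41), Kcnj12 (-0.97), Kcnk3 (-0.93), Kcnf1 (-0.88), Kcns1 (-0.86) and Kcna6 (-0.48), with Kcnn2 higher (0.68). Kcnf1 was 87.2, 87.5 and 153 CPM in the AA + RSD mice and 39.7 to 83.1 CPM in 18 AA + RSD + minocycline mice, and Kcnn2 was 29.4, 45.1 and 46.1 CPM against 48.1 to 81.6 CPM. Neither overlapped, and mouse 9674 held the extreme value of each. The groups share no number series, so series and treatment cannot be told apart in these values. Between SS + RSD and AA + RSD mice 0 members were called in the cortex (0.493% of all genes; 3 at an unadjusted p under 0.05; 0 by DESeq2) and 2 in the hippocampus (0.78%), Kcnk3 (-0.89) and Kcnj9 (-0.67), both lower in SS + RSD mice. That count was 0 without mouse 5391 or 9615 and 1 without mouse 5400.

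Without mouse 9674, 0 members were called in any of these comparisons by edgeR's quasi-likelihood test. The share of all genes called was then 0.0% in AA + RSD against AA, 0.0% in AA + RSD + minocycline against AA + RSD and 0.0% in SS + RSD against AA + RSD mice in the cortex. In the hippocampus these shares were 0.0419%, 0.0419% and 0.0171%. Members at an unadjusted p under 0.05 then numbered 3, 3 and 3 for cortex libraries, and 3, 6 and 1 for hippocampus libraries, with 2 AA + RSD mice left. Kcng2 in the cortex moved from 1.40 to -0.15 and Kcnj13 from 4.23 to -0.29 against AA mice. In the comparison with minocycline-treated mice Kcnh5 in the hippocampus moved from -1.41 to -0.37, Kcnk3 from -0.93 to -0.29 and Kcnn2 from 0.68 to 0.53. There Kcnf1 moved to -0.51, Kcnj12 to -0.42, Kcns1 to -0.36 and Kcna6 to -0.27, and in the cortex Kcna4 moved to -0.32, Kcng2 to 0.19 and Kcnj13 to 0.012. Against AA mice Kcnk3 moved to 0.20 and Kcnv1 to 0.16 in the hippocampus, and between SS + RSD and AA + RSD mice Kcnk3 moved to -0.25 and Kcnj9 to -0.22. Kcns2 in the cortex kept its size (-0.50 and -0.55) but not its call (adjusted p = 0.204). The partner genes called with all 3 mice were, in the hippocampus, Dpp10 and Kcnab3 against AA mice and Dpp10, Kcnab3, Kcnip3 and Lrrc38 against treated mice, and in the cortex Lgi1 against treated mice. Without mouse 9674 none of these was called, with Dpp10 at 0.28 and Kcnab3 at -0.04 against AA mice, and Dpp10 at -0.40, Kcnab3 at 0.04, Kcnip3 at -0.28, Lrrc38 at -0.20 and Lgi1 at -0.13 against treated mice.

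**Figure D3:**
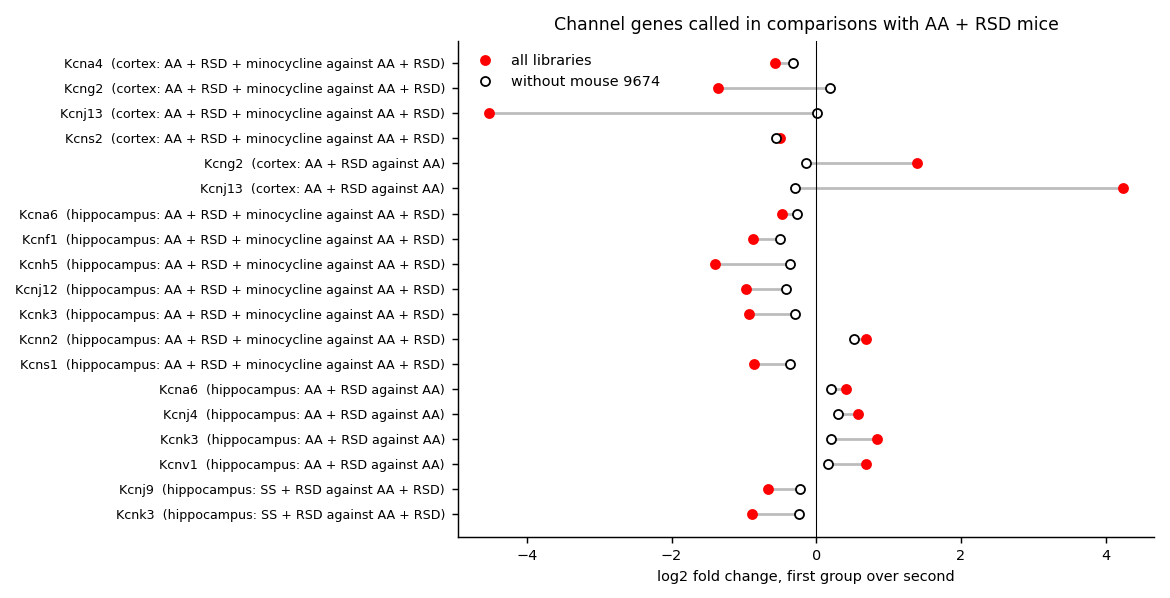
Log2 fold change of each channel gene called in a comparison with AA + RSD mice, from all libraries (filled) and without mouse 9674 (open). Most of the 19 values move towards 0, as Kcnj13 does in the cortex from 4.23 to -0.29, and none is called without that mouse.

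Number series A and B differed among untreated mice, in channel genes and in genes at large. In a fit of controls with genotype as a term, 12 members were higher and 15 lower in series B than in series A in the cortex (40.3% of members and 40.3% of all genes, 21.1% higher and 19.1% lower), and 11 higher and 13 lower in the hippocampus (35.8% of members and 40.8% of all genes, 18.3% higher and 22.5% lower). The members' shares were thus close to the background. Called the same way in both tissues were 15 members, 8 higher and 7 lower in series B, and none in opposite ways. The same counts over all genes are not given here, so these are not read as a trait of channel genes. Higher in series B were Kcnq1ot1 (log2 fold change 1.80 for cortex, 1.87 for hippocampus), Kcnt1 (0.95 and 1.205), Kcnk9 (TASK-3; 0.90 and 1.03), Kcnh4 (0.71 and 0.97) and Kcnt2 (Slick; 0.50 and 0.57). Kcnk10 in the cortex (0.34) and Kcnh7 in the hippocampus (0.69) completed the largest rises. Lower in series B were Kcne1l (-0.66 and -0.67), Kcnk13 (-0.38 and -0.74) and Kcnk1 (-0.34 and -0.43). In the cortex Kcna5 (-0.38), Kcnh5 (-0.38) and Kcnk2 (-0.33) and in the hippocampus Kcnmb1 (-1.10), Kcng4 (-0.48) and Kcng2 (-0.43) were lower too.

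Kcnt1 illustrates the size of this difference: the 6 series A controls had 96.4 to 135 CPM in the cortex with a median of 118, and the 14 series B controls 98.1 to 307 CPM with a median of 260. In the hippocampus the medians were 37.9 and 108 CPM. The ranges overlapped in both tissues, through 1 of 14 series B controls in the cortex and 2 of 13 in the hippocampus. Kcnq1ot1 had 4.88 to 8.89 CPM in series A and 6.80 to 32.8 CPM in series B in the cortex, and 1 of 14 series B controls lay at or below the highest series A value. The share of reads outside annotated genes moved with the series, with medians of 4.94% and 9.69% in cortex controls of A and B and 5.05% and 8.29% in the hippocampus. Glial markers had higher medians in series A, with overlapping ranges. The 5 microglia markers had medians of 279 CPM in series A and 223 CPM in series B in the cortex (ranges 261 to 303 and 199.9 to 309 CPM) and 315 and 253 CPM in the hippocampus (291 to 368 and 217 to 309 CPM). The 5 astrocyte markers had medians of 1125 and 964 CPM for cortex libraries and 1620 and 1392 CPM for hippocampus libraries. The part of these measures in the differences between the series was not tested. Of the 21 partner genes 4 were higher and 4 lower in series B in the cortex and 2 higher and 6 lower in the hippocampus, among them Abcc8 (0.61) and Abcc9 (0.61), subunits of ATP-sensitive channels, in the cortex. With 40.3% and 40.8% of all genes called, these counts are not read as a trait of the partner genes.

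In SS mice RSD was followed by 1 higher and 2 lower members in the cortex (2.57% of all genes called) and 2 higher and 1 lower in the hippocampus (3.11%). In the cortex Kcnj2 (Kir2.1) ranged from 20.6 to 33.2 CPM in 6 SS + RSD mice and from 14.1 to 23.9 CPM in 8 SS mice (log2 fold change 0.65 ± 0.14, adjusted p = 0.0405). Kcnt1 ranged from 78.5 to 128 CPM against 115 to 307 CPM (-1.08 ± 0.28, adjusted p = 0.0426). Kcnh4 ranged from 12.3 to 16.7 CPM against 17.95 to 50.6 CPM (-1.01 ± 0.28, adjusted p = 0.0472), the only called member of the cortex without overlap. In the hippocampus the called members were Kcnh5 (1.01 ± 0.27, adjusted p = 0.0439), Kcna6 (0.28 ± 0.08, adjusted p = 0.0455) and Kcnq1ot1 (-1.57 ± 0.45, adjusted p = 0.047). Kcnh5 was 4.89, 5.30, 5.50, 5.65, 6.17 and 10.03 CPM in SS + RSD mice and 1.45, 2.43, 2.66, 3.26, 3.99, 4.46 and 4.85 CPM in SS mice. Every SS + RSD value lay above every SS value, the nearest pair being 4.89 and 4.85 CPM. Leaving out any of mice 5354, 5391, 9615, 9616 and 9621 left 0 members called in either tissue, and leaving out mouse 5400 left 3 in each.

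All 6 SS + RSD mice and 2 of the SS controls are in series A. With these libraries alone 0 members were called in either tissue (1 member in the cortex and 6 in the hippocampus at an unadjusted p under 0.05, by edgeR with 2 controls). With the series as a term 0 were called either (1 and 4 at an unadjusted p under 0.05). Kcnt1 in the cortex was 115 and 135 CPM in the 2 series A controls, Kcnh4 17.95 and 18.98 CPM, and their fold changes within series A were -0.23 and -0.31 on the log2 scale, from -1.08 and -1.01. Kcnq1ot1 in the hippocampus was 4.66 and 9.69 CPM in these 2 controls and 3.80 to 13.2 CPM in SS + RSD mice, and its fold change within series A was -0.03. Kcnj2 was larger within series A than over all controls (0.87, adjusted p = 1): its 2 series A controls had 14.1 and 15.4 CPM, below all 6 SS + RSD mice. Kcnh5 in the hippocampus kept a fold change of 0.67 (adjusted p = 0.72), with series A controls at 3.26 and 4.85 CPM. With the share of reads outside genes as a term, Kcnt1, Kcnh4 and Kcnj2 in the cortex had -0.31, -0.36 and 0.79. DESeq2, on all libraries, called 5 members in the cortex and 6 in the hippocampus, and its share of all genes called is not given here. Marker genes of other cells had higher summed levels in SS + RSD than in SS mice, with overlapping ranges. In the cortex the 5 microglia markers summed to 268 to 369 CPM in SS + RSD and 199.9 to 279 CPM in SS mice, the 5 astrocyte markers to 1091 to 1643 and 843 to 1114 CPM, and the 5 inhibitory neuron markers to 848 to 1151 and 692 to 875 CPM. In the hippocampus the microglia markers summed to 302 to 434 and 230.2 to 351 CPM. The cortex library of mouse 9621 (SS + RSD) had 929 CPM of 5 striatum markers, against 86.0 to 285 CPM in SS controls. The part of these cells in the channel results was not tested.

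SS + RSD + minocycline against SS + RSD mice gave 4 higher and 4 lower members in the cortex (11.9% of members, 8.85% of all genes) and 3 higher and 3 lower in the hippocampus (8.96% of members, 5.96% of all genes). In the cortex Kcnq1ot1 (1.44), Kcnt1 (0.97), Kcnh4 (0.89) and Kcnk9 (0.87) were higher, and Kcnj2 (-0.48), Kcnv1 (-0.43), Kcnk1 (-0.39) and Kcnj12 (-0.36) were lower. In the hippocampus Kcnq1ot1 (1.56), Kcnh4 (1.21) and Kcnk10 (0.38) were higher, and Kcns2 (-0.44), Kcnn1 (-0.29) and Kcna6 (-0.25) were lower. Kcnt1 in the cortex ranged from 88.2 to 339 CPM with a median of 271 in 14 SS + RSD + minocycline mice, and 3 of the 14 lay at or below the highest series A control. The values of every one of these members overlapped between the groups. No series holds both groups. With the series as a term, which then rests on the controls of A and B, 0 members were called (1 in the cortex and 6 in the hippocampus at an unadjusted p under 0.05). Kcnt1 then had -0.16, Kcnh4 -0.02, Kcnk9 -0.16, Kcnq1ot1 -0.59 and Kcnk1 0.12 in the cortex, all with the sign turned, and Kcnj2 had -0.77. With the share of reads outside genes as a term, Kcnt1 had 0.16, Kcnh4 0.21, Kcnk9 0.02, Kcnq1ot1 0.44, Kcnk1 -0.20 and Kcnj2 -0.62. Leaving out 1 SS + RSD mouse gave 1 (without 9616) to 6 (without 5400) members in the cortex, with 3 without 5391 or 9615, 4 without 5354 and 5 without 9621; in the hippocampus it gave 0 without 5354, 5391, 9615 or 9616 and 4 without 5400 or 9621. In the cortex 1 partner gene was called, Kcnip3 (-0.44). The striatum marker Adora2a had a median of 8.76 CPM and a highest value of 58.5 CPM in SS + RSD + minocycline cortex. In SS + RSD cortex its median was 3.49 CPM and its highest value 85.9 CPM. Its highest value in AA + RSD + minocycline cortex was 9.93 CPM. The part of striatal tissue in comparisons that use SS + RSD + minocycline cortex, between genotypes and tissues too, was not tested.

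**Figure D4:**
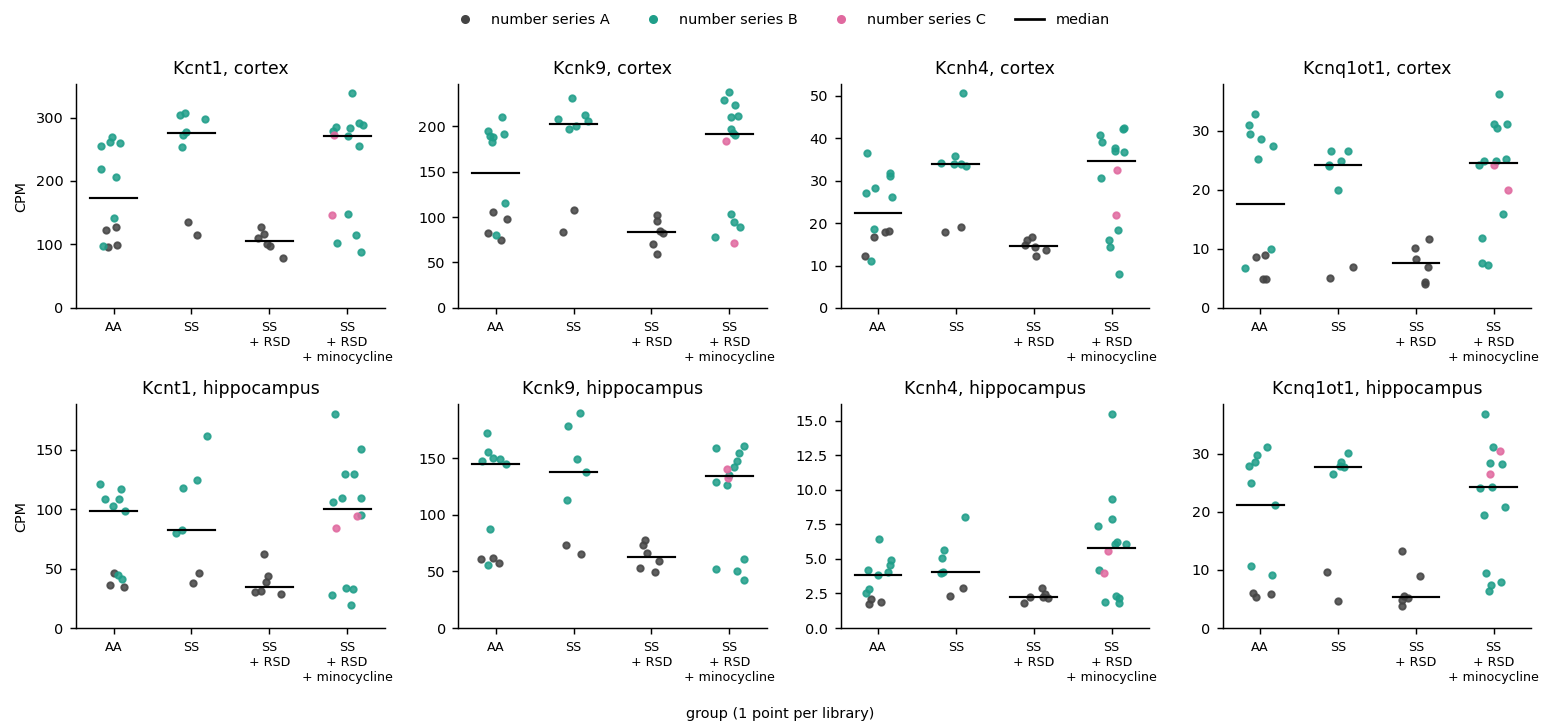
CPM of Kcnt1, Kcnk9, Kcnh4 and Kcnq1ot1 in each cortex (top) and hippocampus (bottom) library of AA, SS, SS + RSD and SS + RSD + minocycline mice; colours give the number series and bars the median. Of the 6 SS + RSD mice, all of series A, those at or below the highest series A control numbered 6 for Kcnt1, Kcnk9 and Kcnh4 and 4 for Kcnq1ot1 in the cortex. Hippocampus libraries gave 5, 5 and 5 for Kcnt1, Kcnh4 and Kcnq1ot1 and 4 for Kcnk9, and in the cortex 2 had less Kcnk9 (59.4 and 70.5 CPM) than the lowest such control (74.3 CPM).

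Minocycline without RSD was given to 4 SS mice. Against SS controls 0 members were called in the cortex (0.0% of all genes; 2 members at an unadjusted p under 0.05) and 0 in the hippocampus (0.0%; 3 members) by edgeR's quasi-likelihood test, and DESeq2 called 0 in each. The 4 mice were far apart by series. Kcnt1 in the cortex was 83.1 and 104 CPM in the 2 mice of series B and 241 and 241 CPM in the 2 of series C. Kcnq1ot1 was 3.67 and 6.66 CPM against 32.8 and 33.3 CPM, and Kcnh5 5.25 and 11.5 CPM against 20.6 and 21.995 CPM. For Kcnt1 and Kcnq1ot1 the 2 series B mice lay below the highest series A control (135 and 8.89 CPM). In the hippocampus Kcnh5 was 3.25 and 3.55 CPM in the mice of series B and 8.13 and 8.27 CPM in those of series C. The single AA + minocycline mouse, of series C, had 21.9 CPM of Kcnh5 in the cortex and 8.95 CPM in the hippocampus.

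Kcnh5 had cortex group means from 13.9 to 14.8 CPM in the 7 groups of 3 or more mice, in the order AA + RSD + minocycline, SS, AA + RSD, AA, SS + RSD, SS + RSD + minocycline and SS + minocycline, with SDs of 2.71 to 7.91 CPM. No neighbours in that order differed beyond their spread. In the hippocampus the order was SS (3.30 ± 1.21 CPM, SD), AA + RSD + minocycline (4.03 ± 1.44), AA (4.58 ± 1.54), SS + RSD + minocycline (4.76 ± 1.37), SS + minocycline (5.80 ± 2.77), SS + RSD (6.26 ± 1.90) and AA + RSD (10.5 ± 8.88), where the last is 5.23, 5.44 and, in mouse 9674, 20.7 CPM. Neighbours up to SS + RSD differed by less than either SD; the last step, of 10.5 against 6.26 CPM, was larger than the SD of SS + RSD and smaller than that of AA + RSD, and rests on mouse 9674. The 5 members most like it, by the Pearson correlation of mean log2 CPM over the 14 groups of 2 or more libraries, were Kcnv1 (r = 0.97), Kcnj12 (0.97), Kcnj4 (0.96), Kcnk3 (0.96) and Kcna6 (0.96). These points share libraries and span both tissues: within the 7 cortex groups r was 0.94, 0.85, 0.52, 0.69 and 0.016 and within the 7 hippocampus groups 0.86, 0.81, 0.82, 0.75 and 0.88. Without mouse 9674 r was 0.98, 0.97, 0.96, 0.97 and 0.95 over the 14 groups, 0.93, 0.78, 0.52, 0.73 and 0.63 for cortex groups, and 0.69, 0.47, 0.53, 0.28 and 0.62 for those of the hippocampus.

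**Figure D5:**
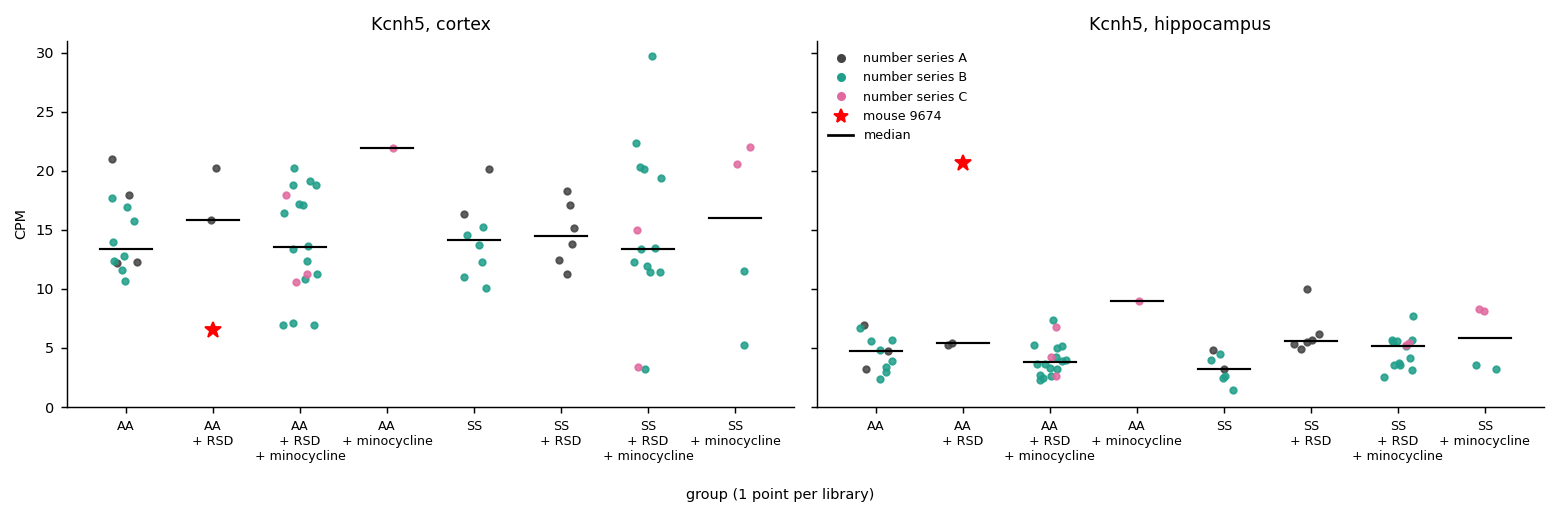
CPM of Kcnh5 in every library by group, in the cortex (left) and the hippocampus (right); colours give the number series, the red star is mouse 9674 and bars are medians. Group medians lie between 13.4 and 21.9 CPM in the cortex and between 3.26 and 8.95 CPM in the hippocampus, and in mouse 9674 the 2 tissues are turned round (6.49 and 20.7 CPM).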

How the data were processed

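The authors extracted RNA from the cerebral cortex and hippocampus, made strand-specific libraries from polyadenylated RNA, used STAR to align single reads to GRCm39, and deposited 1 table per tissue with the raw count of reads per GENCODE gene; the strand setting, STAR version and annotation release are not given in the sources used here. Of 134 libraries with a known group 130 were used: mouse 9887 (SS + minocycline) and mouse 9877 (AA + RSD + minocycline) held identical counts in each tissue and were left out. In addition 1 library with conflicting tissue labels and 3 table columns that could not be matched to the labels were not used. The 4 summary lines of each table stayed out of library sizes and tests (median of all reads in cortex and hippocampus libraries: unmapped 12.6% and 13.4%, multimapping 4.96% and 4.80%, outside genes 8.37% and 7.65%, ambiguous 1.25% and 1.22%).

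Tests were run with edgeR 4.0.16 (R 4.3.3): filterByExpr by group (minimum count 10, minimum total 15), TMM scaling and the quasi-likelihood test, with Benjamini-Hochberg adjustment over all genes tested and calls at an adjusted p under 0.05. Within-genotype comparisons used all groups of that genotype, between-genotype ones all groups, and tissues were compared in 1 model of controls. The labels give cortex and hippocampus libraries of 1 mouse the same number, so the tissues are paired by animal; the fit with the mouse as a replicate block was an alternative. The other alternatives were DESeq2 1.42.0 (Wald test), RLE size factors in edgeR, no filter, only the groups compared, the number series or the share of reads outside genes as a term, leaving out mice in turn and leaving out 5 doubted mice. Fits within 1 number series, of tissues in RSD + minocycline mice, and the correlations with Kcnh5 without mouse 9674 were added after seeing the data. Some of the designs were checked on simulated counts, drawn without effects shared by the libraries of a mouse or of a number series. That check does not cover the fits where such effects are present. Likeness to Kcnh5 used log2(CPM + 0.5).

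Members, lists and tests were chosen with earlier results of these data known. Named are all members called where 12 or fewer are called, otherwise the 6 largest rises and falls, the members highest and lowest per kb, and Kcnh5 with the 5 members most like it. Members named beyond this rule were chosen after their values were seen. Within a tissue the p-values measure the spread between these mice. Those between the tissues, with their SEs, come from the fit without the mouse as a block. That fit treats the cortex and hippocampus libraries of a mouse as independent. Of the members this rule names, 3 are not reported by name here; they stay in all counts.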

Additional observations from a re-analysis of the deposited data

Results flagged for a closer look

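The members called in a comparison with SS control, SS + RSD or SS + minocycline mice, and Kcnh5, were searched in those groups for a value far from the others, and 1 of 27 sets of values held one. Kcnh5 in the hippocampus was 10.03 CPM in 1 of the 6 SS + RSD mice, mouse 5354, and 6.17 CPM in the next. The gap was 0.752 of the range of the group. This gap passed the limit of the search, and chance passes that limit in about 1 of 20 groups.

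A search of all 67 members in the same groups, added after seeing the data, found 31 such values in 402 sets (7.71%). Of these, 11 were in the cortex library of mouse 9621 (SS + RSD), the one with 929 CPM of striatum markers. Among them Kcna5 was 16.0016 CPM against 4.34 CPM in the next mouse (0.81 of the range) and Kcnn3 43.7 against 18.3 CPM (0.751).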

How the results depend on the processing

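The tissue counts and the genotype counts among controls kept within 1.5 times their value under every alternative run, except 29 in place of 44 members in SS controls of number series A alone. With the mouse as a replicate block, the paired fit, 54 (AA) and 52 (SS) members were called between the tissues in place of 50 and 44. The counts with RSD moved. In AA + RSD against AA they were, in the cortex (2), 1 by DESeq2, with only the groups compared and with the share of reads outside genes as a term, and 0 with the number series as a term, in series A alone and without the 5 doubted mice; in the hippocampus (4) they were 10 by DESeq2, 7 with RLE size factors, 1 with the series term, and 0 in series A alone, with only the groups compared and without the doubted mice. In AA + RSD + minocycline against AA + RSD they were, in the cortex (4), 0 with the series term, 1 with the outside share and 0 without the doubted mice, and in the hippocampus (7) 14 by DESeq2 and 0 without the doubted mice. In SS + RSD against SS they were, in the cortex (3), 5 by DESeq2, 14 with only the groups compared, and 0 with no filter, the series term, series A alone or the outside share; in the hippocampus (3) they were 6, 8 and 0 in the same order, 1 with RLE size factors and 0 without the doubted mice. In SS + RSD + minocycline against SS + RSD they were, in the cortex (8), 4 with no filter and 0 with either term, and in the hippocampus (6) 1 and 0. SS + RSD against AA + RSD gave 1 with the series term in the cortex (0), and 0 in the hippocampus (2) in series A alone, with only the groups compared and without the doubted mice. SS + RSD + minocycline against AA + RSD + minocycline gave 1 in the cortex (0) by DESeq2, with the outside share and without the doubted mice, and SS + minocycline against SS gave 7 in the cortex (0) in series B alone. Leaving out 1 RSD mouse gave, in cortex and hippocampus, 0 to 3 and 0 to 13 (AA + RSD against AA), 0 to 4 and 0 to 15 (AA + RSD + minocycline against AA + RSD), 0 to 3 and 0 to 3 (SS + RSD against SS), 1 to 6 and 0 to 4 (SS + RSD + minocycline against SS + RSD) and 0 to 2 and 0 to 8 (SS + RSD against AA + RSD), and leaving out 1 SS + minocycline mouse gave 0 to 0 in both. For most alternative fits, here and above, the share of all genes called is not given. Their counts of members are therefore not read as more or fewer results about channel genes. The causes were not tested.

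Of the log2 fold changes of single members 632 kept their direction and side of the threshold, 235 lost the call, 3 gained it and 38 turned. In the cortex, AA + RSD + minocycline against AA + RSD turned for Kcng2 (0.19 without mouse 9674, 0.20 without the doubted mice), Kcnj13 (0.012 without 9674) and Kcnh5 (0.22 with the series term, 0.080 with the outside share, 0.03 without 9643, 0.26 without 9646). AA + RSD against AA turned for Kcng2 (-0.15 without 9674, -0.14 without the doubted mice), Kcnj13 (-0.29 and -0.051) and Kcnh5 (0.30 and 0.40, and 0.0056 with only the groups compared). With the series term SS + RSD + minocycline against SS + RSD turned for Kcnh4 (-0.017), Kcnh5 (0.53), Kcnk1 (0.12), Kcnk9 (-0.16), Kcnq1ot1 (-0.59) and Kcnt1 (-0.16) in the cortex, and for Kcna6 (0.089), Kcnh5 (0.036), Kcnk10 (-0.072), Kcnn1 (0.031) and Kcnq1ot1 (-0.46) in the hippocampus. Kcnh5, not called in the cortex, also turned there in SS + RSD + minocycline against AA + RSD + minocycline (-0.52 in series C), SS + RSD against AA + RSD (-0.30 without 9674, -0.03 without 5400, -0.26 without the doubted mice), SS + RSD against SS (-0.28 with the series term, -0.29 in series A), SS + minocycline against SS (-0.47 in series B, -0.06 without 7108, -0.11 without 7121) and SS against AA (0.16 in series A, 0.012 without the doubted mice), and in the hippocampus in SS + RSD against AA + RSD (0.29 without 9674, 0.29 without the doubted mice). Over the mice left out in turn, these values ran in the cortex from -1.80 to 0.19 (Kcng2), -0.41 to 0.26 (Kcnh5) and -5.09 to 0.012 (Kcnj13) in AA + RSD + minocycline against AA + RSD, from -0.15 to 1.84, -0.37 to 0.30 and -0.29 to 4.80 for the same genes in AA + RSD against AA, and, for Kcnh5, from -0.30 to 0.39 in SS + RSD against AA + RSD and -0.11 to 0.37 in SS + minocycline against SS; in the hippocampus Kcnh5 ran from -1.10 to 0.29 in SS + RSD against AA + RSD. DESeq2 gave no adjusted p for Kcnj13 in 2 cortex comparisons with AA + RSD mice. Groups of 3 AA + RSD and 2 series A SS controls limit what these comparisons can show.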

Other observations

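Within number series B, 2 SS + minocycline mice could be set against 6 SS controls, a comparison chosen after seeing the data. In the cortex edgeR's quasi-likelihood test then called 7 channel genes, among 5225 of 19253 genes (27.1%). Lower in the 2 minocycline mice were the noncoding Kcnq1ot1 (log2 fold change -2.09 ± 0.51, SE, adjusted p = 0.00747), the axonal Kv1 gene Kcna3 (-1.74), the sodium-activated channel Kcnt1 (-1.45) and the leak channel Kcnk9 (-1.42), among others. Higher were Kcnk1 (0.50) and the BK accessory subunit Kcnmb4 (0.85). With only 2 mice, and the 2 SS + minocycline mice of series C at 241 CPM of Kcnt1 each in the cortex, these values describe those libraries. In the 2 series B mice Kcnt1 was 83.1 and 104, Kcnq1ot1 3.67 and 6.66 and Kcnk9 52.9 and 87.2 CPM. None lay above the highest series A control (135, 8.89 and 108 CPM). Medians of series B controls were 260, 25.8 and 195 CPM. These 3 genes were also lower, and Kcnk1 and Kcnmb4 higher, in series A than in series B controls. Kcna3 was not called there. The part of this difference in the 7 calls was not tested.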
